A study of Mus musculus with 5 samples.

Results

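The genes described here are 10 genes of blood stem and progenitor cells, read by name from the deposited counts of libraries labelled as mouse CRC tumours. They are Kit, Cd34, Gata2, Myb, Meis1, Mecom, Hlf, Erg, Gfi1b and Hoxa9, and all 10 were found among the 54113 rows with a gene name. All mice were C57BL/6 and bore tumours of MC38, a mouse colon adenocarcinoma cell line that the study implanted under the skin, and the labels name no further allele or agent. RNA of 3 samples after 2 weeks at 30 °C, a thermoneutral temperature for mice, was compared with RNA of 2 samples after 2 weeks at 4 °C. The labels give neither age nor sex for these animals, nor whether each library came from 1 mouse, so p-values measure the spread between these libraries. The comparison asks which transcripts differ between samples of cold-exposed and warm-housed mice.

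Blood stem cells renew themselves and give rise to progenitors, which commit step by step to the red cell, megakaryocyte, myeloid and lymphoid lineages. In mice this takes place mainly in bone marrow, and the spleen also holds progenitors, above all of red cells. Kit and Cd34 are surface proteins of these cells, while the other 8 genes encode transcription factors that keep the immature state or open a lineage. Several are also used elsewhere: Kit and Gata2 in mast cells, Erg, Cd34 and Mecom in vessel endothelium, Gfi1b in erythroid cells and megakaryocytes, and Hlf in tissues with a strong daily rhythm.

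Named genes received 16191708 to 20320525 counts per library, and levels are given in CPM, the counts of a gene in every 1000000 counts of its library. Summed over 20 genes, pancreatic acinar transcripts reached 275798 CPM in 30 °C replicate 2 and 2697 CPM in 4 °C replicate 2, against 20.7 to 82.5 CPM in the other 3 libraries. In 30 °C replicate 2 these transcripts take up part of the total, which lowers the plain CPM of every other gene. Values scaled by the TMM method (TMM-scaled CPM), which sets such a shift aside, are therefore given where the scales differ. The 10 epithelial markers summed to between 20.3 and 169 CPM, and the intestinal markers Cdx2 and Vil1 stayed at or below 0.458 and 0.215 CPM. The sum was highest in 30 °C replicate 2, where Krt18, Muc1 and Cdh1 were also highest, at 37.7, 46.9 and 24.4 CPM. Krt8 stood at 36.3, 39.6 and 4.63 CPM at 30 °C and at 3.17 and 59.7 CPM at 4 °C. Markers of the epithelial lineage, from which MC38 derives, were thus low in sum and uneven between libraries. Other tissue was plain to see: the leukocyte gene Ptprc stood at 462 to 950 CPM, the globin gene Hbb-bs at 6567 to 19398 CPM, and Tlx1 and Nkx2-5, factors of splenic mesenchyme, at 10.5 to 30.2 and 2.90 to 9.08 CPM. What tissue the libraries hold besides or in place of tumour cells was not tested, so the levels below are those of the sampled material and cannot be assigned to the tumour.

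Among the 10 genes, Myb, Kit and Gfi1b stood lower at 4 °C, and Cd34, Gata2 and Meis1 did not. Summed over the 10 genes, the level was 268, 176 and 218 CPM at 30 °C and 174 and 166 CPM at 4 °C. Myb, Kit and Gfi1b together made up 187, 123 and 150 CPM of this at 30 °C and 95.5 and 102 CPM at 4 °C. The other 7 genes together stood at 80.9, 52.6 and 68.5 CPM at 30 °C and at 78.7 and 64.0 CPM at 4 °C, so their groups overlapped. In TMM-scaled CPM the 3 genes stood at 174, 167 and 133 against 88.3 and 99.1, and the other 7 at 75.2, 71.3 and 60.7 against 72.8 and 62.0. The 3 were grouped after the values were seen, as the members lower at 4 °C without overlap. The contrast between the 2 sums follows from that choice and was not tested.

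**Figure D1:**
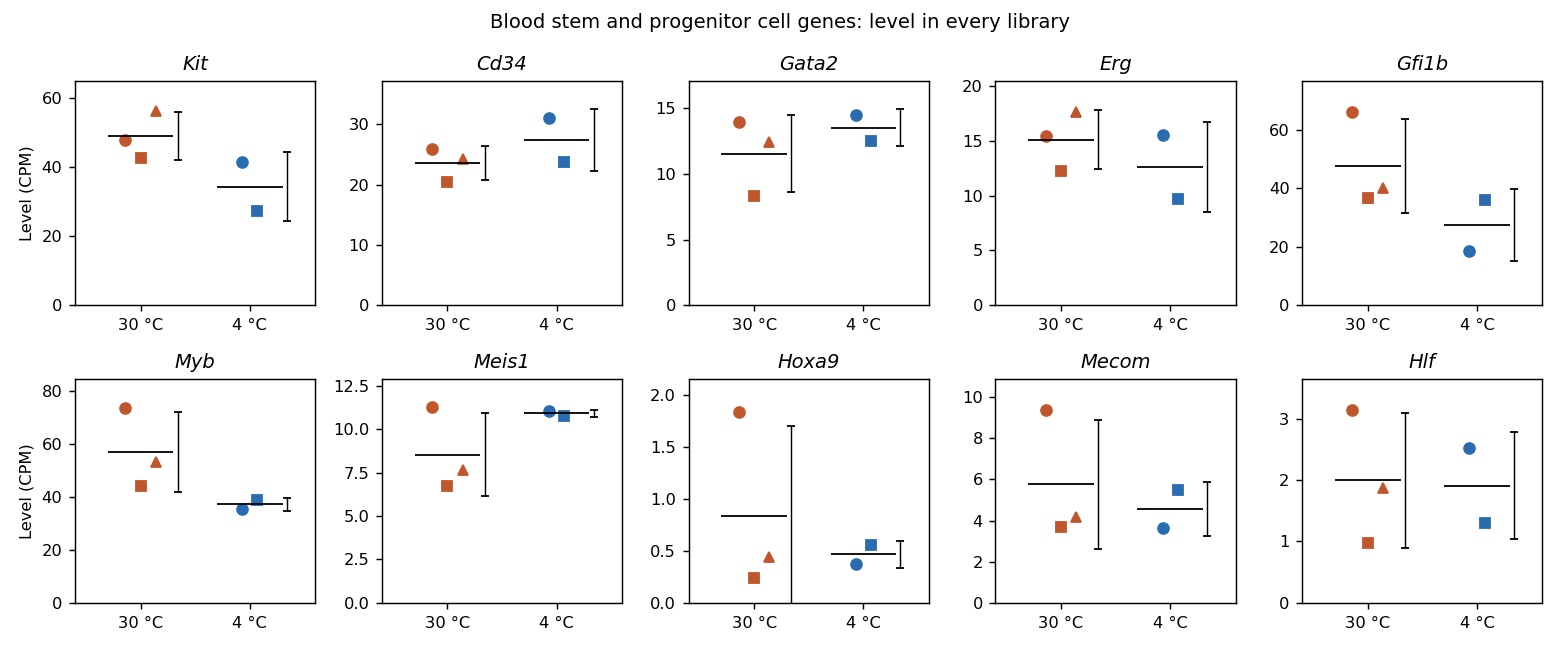
Level of each gene in CPM (vertical axes, starting at 0 and scaled per gene) in the 3 libraries at 30 °C (orange) and the 2 at 4 °C (blue), with circles for replicate 1, squares for replicate 2 and triangles for replicate 3. Horizontal lines are group means and bars are 1 SD, cut at 0 for Hoxa9. For Kit, Myb and Gfi1b both libraries at 4 °C lie below all 3 at 30 °C.

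Low counts were removed before testing, which left 16133 genes and 9 of the 10 members. Hoxa9 was not tested. By the quasi-likelihood test of edgeR with Benjamini-Hochberg adjustment over all genes tested, 0 genes (0%) and 0 of the 9 members had an adjusted p under 0.05, and the smallest adjusted p among members was 0.69. At an unadjusted p under 0.05, 3 of the 9 members were lower at 4 °C (4.17% of all genes) and 0 were higher (2.58% of all genes). DESeq2 gave 0 members past its adjusted threshold (1.01% of all genes) and the same 3 lower at an unadjusted p under 0.05 (5.35% of all genes). The median log2 fold change was −0.39 over the 9 members and 0.0064 over all genes tested.

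The upstream sequences of Gfi1b, Myb and Kit are shown because these are the members that stood lower at 4 °C. They end 1 base before the first annotated base of the gene, run 5′ to 3′ on the gene's strand and come from the RefSeq promoters of GRCm38.p6, in which all 10 members were matched by symbol. Capitals mark a GATAA, the core letters read by GATA factors such as Gata1 and Gata2.
Gfi1b, chr2:28621983-28622232, minus strand: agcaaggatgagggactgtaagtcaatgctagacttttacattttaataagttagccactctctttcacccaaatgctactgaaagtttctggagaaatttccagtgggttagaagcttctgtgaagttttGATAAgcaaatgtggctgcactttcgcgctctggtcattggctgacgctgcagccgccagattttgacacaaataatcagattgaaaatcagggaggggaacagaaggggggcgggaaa
Myb, chr10:21160985-21161234, minus strand: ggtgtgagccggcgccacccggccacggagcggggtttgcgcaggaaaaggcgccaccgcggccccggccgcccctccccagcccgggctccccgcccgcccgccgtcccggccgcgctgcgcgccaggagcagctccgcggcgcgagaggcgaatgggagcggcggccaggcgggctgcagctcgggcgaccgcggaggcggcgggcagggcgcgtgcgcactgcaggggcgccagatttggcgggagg
Kit, chr5:75574737-75574915, plus strand: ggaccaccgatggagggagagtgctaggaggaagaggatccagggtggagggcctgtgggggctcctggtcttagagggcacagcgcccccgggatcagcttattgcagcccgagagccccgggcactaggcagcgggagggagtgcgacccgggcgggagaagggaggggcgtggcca

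In the 250 bases before the first listed start, GATAA was found on either strand in 23.0% of 27025 mouse promoters and in 3 of the 10 members, Gfi1b, Mecom and Hoxa9. CGGAAG, letters read by ETS factors such as Erg and Fli1, was found in 13.8% of promoters and among the members in Meis1 alone. TGTGGT, read by RUNX factors, was found in 14.2% of promoters and likewise only in Meis1. CAGNTG, an E-box, was found in 44.5% of promoters and in 2 members, Mecom and Hlf. TAACTG and TAACGG, letters read by Myb, were found in 8.57% and 2.17% of promoters and in 0 of the members. The 3 upstream stretches thus share none of these letters. They also differ in base composition, with 44.4% G and C in the 250 bases for Gfi1b, 70.8% for Kit and 81.2% for Myb, against a median of 52.0% over all promoters.

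Of the 2 surface proteins, only the level of Kit kept the groups apart. Kit encodes the receptor for stem cell factor and spans 75574916 to 75656722 of chromosome 5 in GRCm38. It stood at 47.9, 42.8 and 56.4 CPM at 30 °C and at 41.4 and 27.4 CPM at 4 °C. Both libraries at 4 °C were below all 3 at 30 °C, but 42.8 and 41.4 CPM are closer than their counting error (exact 95% Poisson intervals 39.7 to 46.0 and 38.5 to 44.5). In TMM-scaled CPM, Kit averaged 50.8 ± 6.77 (SD, n = 3) in the warm group and 32.4 ± 8.34 (SD, n = 2) in the cold group. This gave a log2 fold change of −0.65 (standard error 0.23, 95% interval −1.21 to −0.09, unadjusted p = 0.029, adjusted p = 0.71 from edgeR). Omitting single libraries moved it between −0.94 and −0.42. The unadjusted p of edgeR was then 0.14 without 4 °C replicate 2, the library with the lowest Kit, 0.086 without 30 °C replicate 2 and 0.055 without 30 °C replicate 3.

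Cd34, a sialomucin of progenitors and endothelium, lies on chromosome 1 from 194938819 to 194961279. Its level was 25.9, 20.4 and 24.3 CPM at 30 °C and 31.1 and 23.7 CPM at 4 °C. The groups overlapped, and the log2 fold change was 0.08 (standard error 0.21, 95% interval −0.41 to 0.58, adjusted p = 0.95 from edgeR). Since both genes are counted in the same library, their ratio needs no scaling. The Kit to Cd34 ratio of counts was 1.85, 2.10 and 2.32 at 30 °C and 1.33 and 1.15 at 4 °C. The Cd34 ratio of Myb was 2.84, 2.15 and 2.19 against 1.14 and 1.64, and that of Gfi1b was 2.55, 1.80 and 1.65 against 0.599 and 1.52. The libraries at 4 °C were lowest in all 3 ratios, which were chosen after the values were seen and were not tested. Ratios to Cd34, Gata2, Meis1, Erg, Mecom and Hlf were lower at 4 °C without overlap for 4 of 6 denominators with Kit, 3 of 6 with Myb and 4 of 6 with Gfi1b. The groups overlapped for the others. Hoxa9, which was not tested, was left out as a denominator. The numerators had been picked as lower at 4 °C, which favours lower ratios, and no share over other gene pairs was computed.

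Kit and Gata2 are shared with mast cells, so markers of mast cells and basophils were read in the same libraries. The 11 markers summed to 184, 53.7 and 67.0 CPM at 30 °C and to 37.4 and 73.6 CPM at 4 °C. Over the 10 tested, the median log2 fold change was −0.74. At an unadjusted p under 0.05, 3 were lower (4.17% of all genes) and 0 higher (2.58%). These were Gzmb, which cytotoxic lymphocytes also make, the basophil protease Mcpt8 and the histamine-forming enzyme Hdc, with log2 fold changes of −0.77, −1.21 and −1.57. Cpa3, the mast cell carboxypeptidase, stood at 15.0, 2.48 and 3.79 CPM at 30 °C and at 2.31 and 7.78 CPM at 4 °C. The Kit to Cpa3 ratio was accordingly 3.20, 17.2 and 14.9 at 30 °C and 17.9 and 3.52 at 4 °C, so the libraries rich in Cpa3 were 1 of each temperature. Mrgprb2, a defining receptor of connective tissue mast cells, was at or below 0.309 CPM in every library and at 0 in 30 °C replicate 2, where a count of 0 allows up to 0.181 CPM. The part of mast cells in the level of Kit was not tested.

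Of the lineage factors Gata2, Erg and Gfi1b, the first 2 overlapped between the groups and Gfi1b did not. Gata2, which maintains stem and early progenitor cells, lies on chromosome 6 from 88193891 to 88207032. It stood at 14.0, 8.29 and 12.4 CPM at 30 °C and at 14.5 and 12.5 CPM at 4 °C. The fold change of Gata2 was 0.12 on the log2 scale (standard error 0.21, 95% interval −0.38 to 0.63, adjusted p = 0.93 from edgeR). Erg, an ETS factor of stem cells and endothelium on chromosome 16 from 95359169 to 95586593, stood at 15.4, 12.3 and 17.6 CPM at 30 °C and at 15.5 and 9.70 CPM at 4 °C. The lowest value was that of 4 °C replicate 2, as for Kit. The log2 fold change of Erg was −0.39 (standard error 0.25, 95% interval −0.99 to 0.22, adjusted p = 0.83 from edgeR), and without 4 °C replicate 1 it was −0.72 (unadjusted p = 0.044 from edgeR).

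Gfi1b encodes a zinc finger repressor of red cell and megakaryocyte development and lies on chromosome 2 from 28609450 to 28621982. It stood at 65.9, 36.8 and 40.1 CPM at 30 °C and at 18.6 and 36.0 CPM at 4 °C. The highest library was 30 °C replicate 1 and the lowest 4 °C replicate 1, while 36.8 and 36.0 CPM are closer than their counting error (exact 95% Poisson intervals 33.9 to 39.8 and 33.1 to 39.1). In TMM-scaled CPM, Gfi1b averaged 48.9 ± 12.9 (SD, n = 3) in the warm group and 26.0 ± 12.5 (SD, n = 2) in the cold group. The log2 fold change was −0.91 (standard error 0.37, 95% interval −1.81 to −0.01, unadjusted p = 0.048, adjusted p = 0.73 from edgeR). Left-out libraries moved it between −1.52 and −0.49, with −0.49 without 4 °C replicate 1 and −1.52 without 4 °C replicate 2. The unadjusted p of edgeR was 0.23 without 4 °C replicate 1, 0.096 without 30 °C replicate 1 and 0.089 without 30 °C replicate 2. In bulk tissue, fewer cells that express such a gene and less RNA per cell cannot be told apart.

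Myb gave the smallest unadjusted p of the members. It encodes a factor that keeps progenitors of all blood lineages dividing, and it lies on chromosome 10 from 21124935 to 21160984. Its level was 73.6, 43.9 and 53.3 CPM at 30 °C and 35.5 and 38.9 CPM at 4 °C. All 3 libraries at 30 °C were above both at 4 °C, with 30 °C replicate 1 highest. In TMM-scaled CPM, Myb averaged 58.4 ± 10.6 (SD, n = 3) in the warm group and 35.3 ± 3.44 (SD, n = 2) in the cold group. The log2 fold change was −0.73 (standard error 0.22, 95% interval −1.25 to −0.21, unadjusted p = 0.014, adjusted p = 0.69 from edgeR). It stayed between −0.86 and −0.60 with each library left out, and the unadjusted p of edgeR was under 0.05 in 4 of these 5 fits. Without 4 °C replicate 1 it was 0.076.

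Counted over the 9 tested members, both groups were separate for these 3, all lower at 4 °C, in plain CPM (5.41% of all genes) and in TMM-scaled CPM (11.0% of all genes). None of the 9 was higher without overlap (11.0% and 12.2% of all genes). Without any scaling beyond library size, 0 members had an unadjusted p under 0.05 in edgeR (2.13% of all genes were lower at that threshold). That scaling moved the median log2 fold change of all genes by 0.10. Without 30 °C replicate 2, which held the acinar transcripts, Myb was the 1 member at an unadjusted p under 0.05 (2.20% of all genes, lower).

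**Figure D2:**
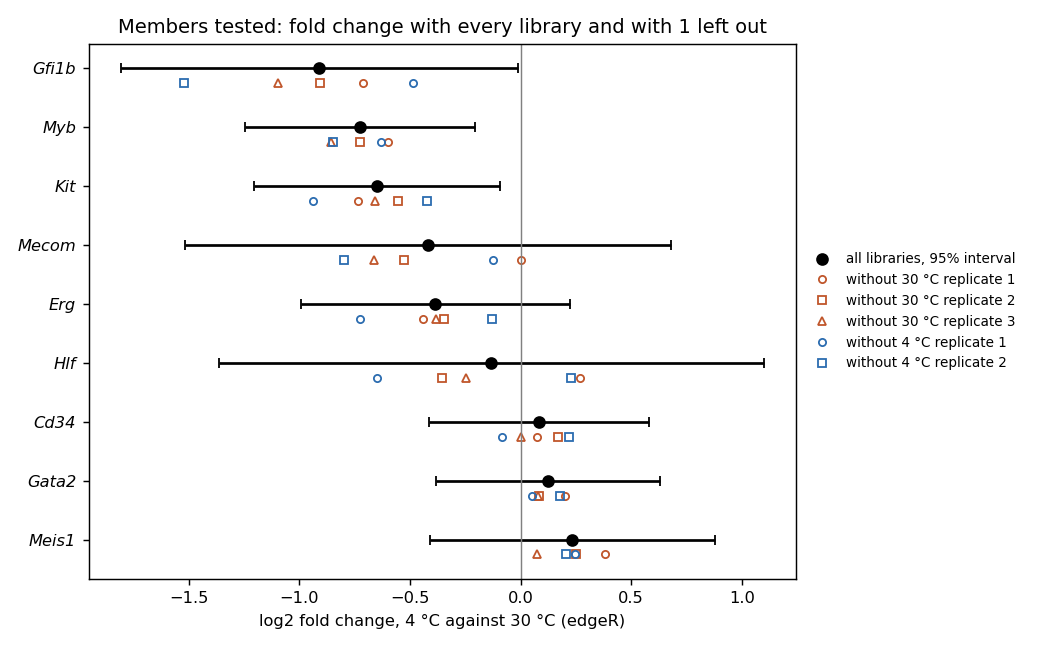
Log2 fold change of the 9 tested members at 4 °C against 30 °C (horizontal axis, edgeR), where black points with bars are the value with all libraries and its 95% interval, and open symbols are the values with 1 library left out. Gfi1b, Myb and Kit stay below 0 in each of the 5 fits, while open symbols lie on both sides of 0 for Cd34, Hlf and Mecom.

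Meis1 and Hoxa9 encode homeodomain proteins that bind DNA together and sustain self-renewal. Meis1, on chromosome 11 from 18879817 to 19018985, stood at 11.3, 6.71 and 7.63 CPM at 30 °C and at 11.1 and 10.7 CPM at 4 °C. The groups overlapped through 30 °C replicate 1, and the log2 fold change was 0.23 (standard error 0.27, 95% interval −0.41 to 0.88, adjusted p = 0.89 from edgeR). Hoxa9, on chromosome 6 from 52223100 to 52231089, had 32, 4 and 9 counts at 30 °C and 7 and 9 counts at 4 °C. In CPM these were 1.83, 0.242 and 0.443 against 0.376 and 0.556. Only 30 °C replicate 1 stood out, with an exact 95% Poisson interval of 1.25 to 2.58 CPM that lies above those of the other 4 libraries, the highest of which ends at 1.06 CPM.

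Other genes of the Hoxa and Hoxb clusters were also low. Of 18 genes, 12 could be tested, and 0 had an unadjusted p under 0.05 in either direction, with a median log2 fold change of 0.17. Hoxa6, Hoxa11 and Hoxa13 were at 3 counts or fewer in every library. The smallest p values belonged to Hoxb7, Hoxb3 and Hoxb6, with log2 fold changes of 0.81, −0.72 and 0.35. Hoxa10, the neighbour of Hoxa9, stood at 1.94 CPM in 30 °C replicate 1 and 2.16 CPM in 4 °C replicate 2, but between 0.121 and 0.394 CPM in the other 3 libraries.

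Mecom and Hlf mark the most immature stem cells and were scarce. Mecom, a zinc finger factor on chromosome 3 from 29951296 to 30548008, stood at 9.38, 3.69 and 4.18 CPM at 30 °C and at 3.65 and 5.50 CPM at 4 °C. On the log2 scale Mecom differed by −0.42 (standard error 0.46, 95% interval −1.52 to 0.68, adjusted p = 0.88 from edgeR). Hlf, a bZIP factor on chromosome 11 from 90336536 to 90390895, stood at 3.15, 0.968 and 1.87 CPM at 30 °C and at 2.53 and 1.30 CPM at 4 °C. On the log2 scale Hlf differed by −0.13 (standard error 0.51, 95% interval −1.36 to 1.10, adjusted p = 0.97 from edgeR). The highest value of both genes was that of 30 °C replicate 1. Without this library the log2 fold change was 0.0025 for Mecom and 0.27 for Hlf. With 16 to 55 counts of Hlf per library, its exact 95% Poisson half-width was 27.4% to 52.6% of the level, so a difference of that size between libraries was not detectable at this depth.

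Genes can be compared with each other only per length. Per kb of annotated exon, Gfi1b was the most abundant member, with a median of 20.1 CPM per kb over the 5 libraries (range 10.2 to 36.0). It was first in every library, and on this length its range lay above that of Myb. Myb (median 4.92), Kit (4.80), Erg (4.46) and Cd34 (3.33) followed with ranges that overlapped from neighbour to neighbour. Gata2 stood at 2.32 CPM per kb, below Cd34 in every library with ranges that did not overlap, and Meis1 at 1.02, below Gata2 in the same way. Mecom (0.337) and Hlf (0.280) overlapped each other, and Hoxa9, at 0.0794, was last in every library. Among all genes tested with an annotated length, the median level was at percentile 83.0 for Gfi1b, 52.3 for Myb, 51.7 for Kit, 9.68 for Mecom and 7.99 for Hlf.

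**Figure D3:**
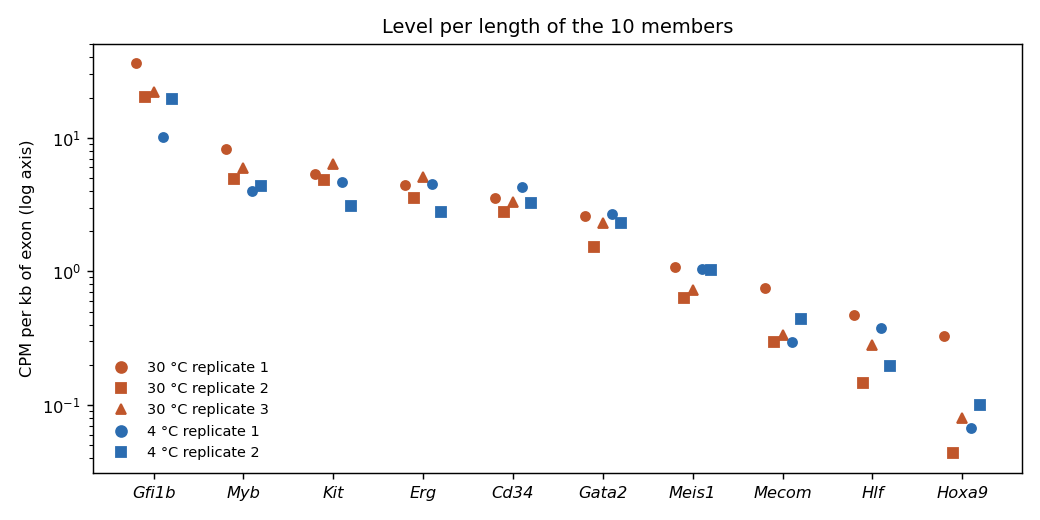
CPM per kb of annotated exon (vertical log axis) of the 10 genes in each library, ordered by their median over the 5 libraries, with orange for 30 °C and blue for 4 °C. Gfi1b is first and Hoxa9 last in every library, and Hoxa9 is highest in 30 °C replicate 1.

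These levels depend on which length is used. With the longest transcript in place of all exons, the mean of Myb was 13.3 CPM per kb instead of 5.49, that of Kit 8.24 instead of 4.85 and that of Cd34 8.19 instead of 3.44, and the means of Gata2, Meis1 and Mecom also moved by more than 1 SD. Gfi1b was still first in all 5 libraries, but its range of 10.2 to 36.2 then overlapped that of Myb, 9.62 to 19.9. Cd34 passed Erg (mean 4.34) by this length, the ranks of the other 8 by mean were as before, and Hoxa9 was last in 4 of 5 libraries. Exons of Cd34, Myb and Mecom overlap the opposite-strand genes Gm16897, Gm26577 and Mecomos, and those of Meis1 overlap Gm16140 on the opposite strand and Gm37818 on the same strand. None of these had more than 5 counts in a library. The labels give no strand setting, and with reads of both strands counted alike a gene and its antisense partner cannot be told apart.

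Genes that act with the members were read from 4 lists. Among 20 other stem and progenitor factors and cofactors, the median log2 fold change was −0.11. At an unadjusted p under 0.05, 2 were lower (4.17% of all genes) and 0 higher (2.58%). Tal1, which binds DNA with Gata1 or Gata2 in immature and red cells, stood at 198, 161 and 139 CPM at 30 °C and at 105 and 107 CPM at 4 °C. Both libraries at 4 °C were below all at 30 °C (log2 fold change −0.81, standard error 0.27, adjusted p = 0.69 from edgeR). Zfpm1, the GATA cofactor also called FOG1, was the other, with a log2 fold change of −0.62. Hhex, a homeodomain factor of early progenitors, had the next smallest p, with a log2 fold change of 0.45.

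Gata1, which takes the place of Gata2 as red cells and megakaryocytes form, stood at 115, 70.0 and 73.4 CPM at 30 °C and at 41.5 and 69.9 CPM at 4 °C (log2 fold change −0.74, adjusted p = 0.74 from edgeR). The Gata2 to Gata1 ratio of counts was 0.122, 0.118 and 0.169 at 30 °C and 0.349 and 0.179 at 4 °C. It was highest in 4 °C replicate 1, the library with the lowest Gfi1b. Lmo2, Lyl1, Runx1 and Fli1, which share binding sites with Gata2, Erg and Tal1 in progenitors, had log2 fold changes of −0.22, 0.17, −0.09 and 0.18, and the adjusted p of edgeR was at least 0.86 for each.

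Of 16 other surface and receptor genes, 2 were lower (4.17% of all genes) and 1 higher (2.58%) at an unadjusted p under 0.05. Csf3r, the receptor for granulocyte colony-stimulating factor, and Prom1 were lower, with log2 fold changes of −0.95 and −2.14. Cd27, which T and B cells also carry, was higher, with 11.8, 8.59 and 17.3 CPM at 30 °C and 26.6 and 27.4 CPM at 4 °C (log2 fold change 1.01, adjusted p = 0.69 from edgeR). The list as a whole had a median log2 fold change of 0.12. Slamf1, Procr and Flt3, used to sort stem and early progenitor cells, each had more than 3 counts in every library and were not among the 3.

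Ligands and niche genes stood higher at 4 °C more often than lower. Of 11 tested, 10 had a positive log2 fold change, and the median was 0.45. Among all genes tested, 49.3% had a negative log2 fold change. At an unadjusted p under 0.05 from edgeR, 4 were higher (2.58% of all genes) and 0 lower (4.17%). Cxcl12, the chemokine that holds stem cells in their niche, stood at 263, 174 and 249 CPM at 30 °C and at 456 and 308 CPM at 4 °C. On the log2 scale this was 0.62 higher (standard error 0.19; edgeR adjusted p = 0.69). The others were Csf1, the macrophage growth factor, at 0.82, Tcf21, a factor of splenic stroma, at 0.85, and Flt3l, the ligand of Flt3, at 0.72. Kitl, the ligand of Kit, stood at 49.9, 28.1 and 45.0 CPM at 30 °C and at 64.1 and 43.1 CPM at 4 °C, with overlap between the groups (log2 fold change 0.29, adjusted p = 0.84 from edgeR). The Kit to Kitl ratio of counts was 0.961, 1.52 and 1.25 at 30 °C and 0.646 and 0.635 at 4 °C. Thpo, a growth factor of megakaryocytes and stem cells, was at 3 counts or fewer in every library.

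**Figure D4:**
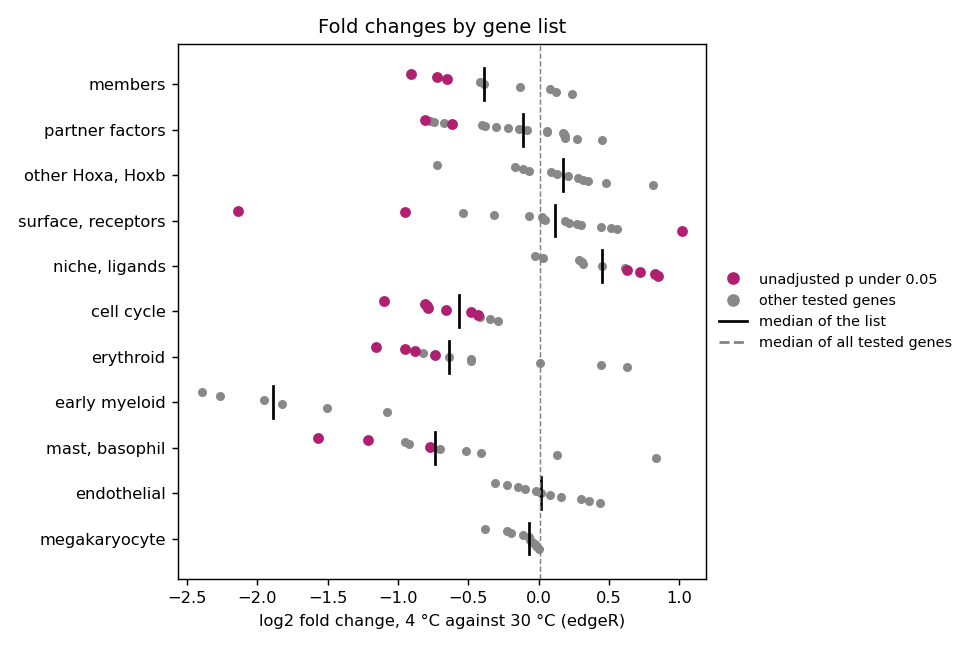
Log2 fold change at 4 °C against 30 °C (horizontal axis, edgeR) of every tested gene in the lists named on the vertical axis, with magenta points for an unadjusted p under 0.05, black lines for list medians and a dashed line for the median of all genes. The members lie on both sides of 0 with 3 magenta points below it, cell cycle and early myeloid genes lie below 0 throughout, and 10 of 11 niche genes lie above 0.

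Markers of dividing and of red cells were read beside the 3 lower members. All 10 cell cycle markers had a negative log2 fold change, as did 49.3% of all genes tested. At an unadjusted p under 0.05 from edgeR, 7 of them were lower (4.17% of all genes). Their sum was 2182 to 2569 CPM at 30 °C and 1616 to 1734 CPM at 4 °C. The smallest p values were those of Mki67, Top2a and Ccnb1. Of 11 erythroid markers, 4 were lower (4.17% of all genes) and 0 higher (2.58%) at an unadjusted p under 0.05. The 4 were Ermap, Hemgn, Rhag and Slc4a1. The globin genes Hbb-bs and Hba-a1 had log2 fold changes of 0.45 and 0.63, and as they make up most of the erythroid sum, that sum was 13937 to 26559 CPM at 30 °C and 29234 to 35701 CPM at 4 °C. With acinar counts taken out of the totals, the groups of this sum overlapped. No defining marker of either list was at 0, and the part of dividing or erythroid cells in the levels of Myb, Kit and Gfi1b was not tested.

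The 6 early myeloid markers, such as the primary granule genes Mpo, Ms4a3 and Ctsg, summed to 1906, 755 and 297 CPM at 30 °C and to 218 and 387 CPM at 4 °C. All 6 had a negative log2 fold change (49.3% of all genes), with a median of −1.89, and 0 had an unadjusted p under 0.05. The highest sum was that of 30 °C replicate 1, the library in which Hoxa9, Mecom, Hlf, Myb and Gfi1b were also highest. Endothelial markers, which share Erg, Cd34 and Mecom as expressed genes, summed to 679, 512 and 1002 CPM at 30 °C and to 950 and 787 CPM at 4 °C. Of 11 tested, 0 had an unadjusted p under 0.05, and the 3 smallest p values were those of Egfl7, Plvap and Sox18. The ratio of Erg to the endothelial gene Pecam1 was 0.127, 0.133 and 0.0891 at 30 °C and 0.0851 and 0.0680 at 4 °C. In the libraries with 0.0891 and 0.0851, the exact 95% Poisson half-width of Erg alone was 10.5% and 11.7%, so these values are not separate. The ratios of Cd34 and of Mecom to Pecam1 overlapped between the groups.

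**Figure D5:**
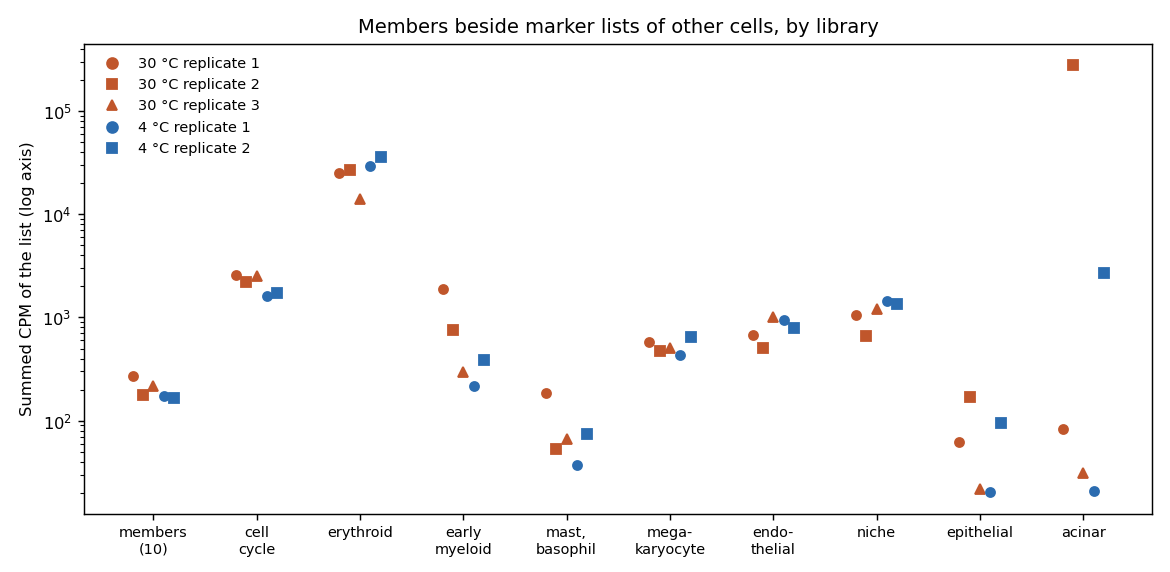
Summed CPM (vertical log axis) of the 10 members and of marker lists for other cells in each library, with orange for 30 °C, blue for 4 °C and symbols for the replicate. The members' sum is lower in both libraries at 4 °C, as is the cell cycle sum, and acinar transcripts stand out in 30 °C replicate 2.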

How the data were processed

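RNA-seq libraries labelled as tumour, 3 at 30 °C and 2 at 4 °C, were analysed. The authors counted aligned reads per gene with featureCounts on the Gencode vM19 annotation, and the deposited values are raw counts. The submitters' processing notes name fastp, HISAT, RSEM and GRCm38 with no version, and which of these steps made the table is not given in the sources used here. Unnamed rows (0.0101% to 0.0170% of counts) were left out, and of 97 symbols shared by several rows the row with the highest mean carried the symbol and the others were tested as separate entries.

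Counts were filtered with filterByExpr, scaled by TMM and tested by quasi-likelihood in edgeR 4.0.16 in R 4.3.3 (robust, no covariate). DESeq2 1.42.0, other scalings and filters, a replicate block and each library left out were alternatives. Standard errors are the log2 fold change divided by the square root of F. Exon lengths and coordinates come from GENCODE M21 (GRCm38), whose release differs from the authors'. Poisson intervals cover counting error only, since reads carry no molecular identifiers. The members and lists were chosen with earlier results of these data known. Genes named beyond the members are their known partners and up to 3 per list with the smallest p, and other genes named were chosen after their values were seen. Some genes of these lists are not reported here.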

Additional observations from a re-analysis of the deposited data

How the results depend on the processing

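The log2 fold changes of Kit, Myb, Gfi1b, Erg, Gata2 and Meis1 kept their sign under all 14 alternatives, and no member passed an adjusted p under 0.05 under any of them. The smallest adjusted p was 0.16, for Myb with DESeq2. The unadjusted p was under 0.05 in 12 of the 14 for Myb, 9 for Kit and 8 for Gfi1b. The sign of Cd34 turned with the replicate block (−0.0055) and without 4 °C replicate 1 (−0.085, range 0.22 to −0.085 over left-out libraries). That of Mecom turned without 30 °C replicate 1 (0.0025, range −0.80 to 0.0025), and that of Hlf without 30 °C replicate 1 (0.27) and without 4 °C replicate 2 (0.23, range −0.65 to 0.27). The cause was not tested.

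Over all genes, the count past the adjusted threshold was 0 in edgeR, 118 with DESeq2, 8 with library size scaling, 44 with the replicate block and 1090 at an unadjusted p under 0.05, at which 3 members passed. Replicate numbers carry no stated pairing, so the block was not used in the report. Deviations of same-numbered libraries from their group means correlated at −0.25 and 0.26. With 2 libraries at 4 °C, their deviations mirror each other, so these correlations cannot decide whether libraries were paired. Under the block the unadjusted p of edgeR was 0.012 for Gfi1b, 0.026 for Myb and 0.090 for Kit. Of the 4 partner lists, 9 genes had an unadjusted p under 0.05, against 5 with library size scaling and 4 to 14 with each library left out. The members' summed level differed by −50.6 CPM on average, or −66.1 in TMM-scaled CPM. With 2 libraries at 4 °C, an exact two-sided permutation test of a single gene cannot go below p = 0.2.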

Other observations

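Of 8 genes of early B and T cell precursors, 6 were tested, and these showed no common direction. Of the 6, 3 had a negative and 3 a positive log2 fold change. Igll1, part of the surrogate light chain, and Rag1, which recombines receptor genes, were lower at 4 °C at an unadjusted p under 0.05 (4.17% of all genes). Rag1 stood at 1.66, 2.96 and 6.35 CPM at 30 °C and at 1.29 and 0.618 CPM at 4 °C, with a log2 fold change of −2.04 (adjusted p = 0.69 from edgeR). Igll1 stood at 0.972, 1.51 and 1.48 CPM at 30 °C and at 0.322 and 0.247 CPM at 4 °C, with a log2 fold change of −2.35 (adjusted p = 0.69 from edgeR). Both rest on few counts, 4 to 30 per library for Igll1 and 10 to 129 for Rag1. The other negative value was that of Vpreb1, −1.02, with 12, 19 and 24 counts at 30 °C and 8 and 11 at 4 °C. The untested Rag2 had 7, 5 and 10 counts against 2 and 2, and the untested Vpreb2 had 4, 2 and 4 against 0 and 1. In plain CPM, Rag1, Igll1 and Vpreb1 were lower at 4 °C without overlap, as were 5.41% of all genes tested. Rag2 and Vpreb2 were lower without overlap too, but they did not pass the count filter, and this share does not cover such genes. The positive values were those of Il7r, which mature T cells also carry, at 0.55, of the B cell factor Ebf1 at 0.36 and of Dntt, which adds bases to receptor genes, at 0.26. Il7r and Ebf1 had the highest median levels per kb of the list, 5.77 and 5.36 CPM per kb. Ebf1 stood at 36.5, 37.2 and 83.3 CPM at 30 °C and at 91.8 and 52.2 CPM at 4 °C.

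Megakaryocyte markers, whose lineage also uses Gfi1b, Mecom and Meis1, held 0 of 10 genes at an unadjusted p under 0.05, with a median log2 fold change of −0.07. Their sum was 579, 476 and 504 CPM at 30 °C and 437 and 652 CPM at 4 °C. Of 5 splenic mesenchyme factors, Tlx1 and Nkx2-5 were higher at 4 °C at an unadjusted p under 0.05 (2.58% of all genes). Their log2 fold changes were 0.75 and 0.86, and all 5 factors had more than 3 counts in every library. Ptprc, the pan-leukocyte gene, stood at 495, 462 and 950 CPM at 30 °C and at 948 and 523 CPM at 4 °C.

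Angpt1, a niche ligand of stem cells, stood at 122 CPM in 30 °C replicate 1 and 92.8 CPM in 4 °C replicate 2, but between 14.8 and 30.2 CPM in the other 3 libraries. The same 2 libraries had the highest Hoxa10, Mecom, Cpa3 and Tpsb2. For Tpsb2, a mast cell tryptase, the levels were 30.8 and 14.0 CPM there and 0.302 to 2.20 CPM in the others. These genes were picked after their values were seen.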
